A study of Mus musculus with 29 samples.

Results

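The 10 cytosolic heat shock chaperone genes described here were Hspa1a, Hspa1b, Hspa8, Hspa4, Hsph1, Hsp90aa1, Hsp90ab1, Dnaja1, Dnajb1 and Hspb1, taken by mouse symbol from the 18240 Ensembl identifiers of the deposited table. All 10 were found, and all 10 passed the filter on low values. Their transcripts were measured by bulk sequencing of polyadenylated RNA from prefrontal cortex of C57BL/6J mice at postnatal day 40. Mice carried 1 K228E allele of Tbr1, a transcription factor gene of deep-layer cortical neurons, and are called HT, or were wild type (WT). HT mice were given vehicle (3 females, 3 males), fluoxetine (4 females, 4 males) or lithium (3 females, 4 males), and WT mice were given vehicle (4 females, 4 males). Fluoxetine is a serotonin reuptake inhibitor and lithium a mood stabiliser. Dose, route and length of treatment are not in the labels, no WT mouse received a drug, and all 29 libraries carry the same batch label. Each value below is a read count that the authors had divided by 1 size factor per library, called a normalised read count here.

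Cytosolic chaperones hold and refold proteins outside the organelles. Hsp70 proteins bind unfolded stretches in cycles driven by ATP, J proteins bring clients to them, Hsp110 proteins exchange their nucleotide, and Hsp90 proteins mature kinases and receptors. Neurons make the constitutive forms at high levels, whereas heat shock factor 1 drives the inducible forms through heat shock elements in their promoters. The endoplasmic reticulum has a chaperone set of its own, which the unfolded protein response drives through other promoter elements, and 14 of its genes, among them Hspa5 (the Hsp70 of that organelle), were compared with the 10 cytosolic genes.

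The genes lie on 7 chromosomes of GRCm38. Hspa1a and Hspa1b are a near-identical tandem pair on chromosome 17, at 34969190 to 34972156 and 34956436 to 34959238 on the minus strand. Hsph1 spans 149614287 to 149636376 on chromosome 5 (minus strand), Dnaja1 spans 40722150 to 40737149 on chromosome 4 (plus strand), and Hspb1 spans 135887919 to 135889563 on chromosome 5 (plus strand). RefSeq promoter windows of GRCm38.p6, each 300 bases long with 250 bases before the start site, were at hand for 7 of the 10 genes and 12 of the 14 endoplasmic reticulum genes. The windows of the genes that the results turn on are printed because 5 of these 7 cytosolic genes hold the same short motif and none of the 12 others does. Capitals mark, in the cytosolic genes, pairs of heat shock element units (GAANNTTC or TTCNNGAA, both strands, searched after the sequences had been seen). In Hspa5 they mark an endoplasmic reticulum stress element (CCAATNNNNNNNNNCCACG, both strands). The windows lie at chr17:34972107-34972406 (minus strand, Hspa1a), chr5:149636287-149636586 (minus strand, Hsph1), chr4:40722218-40722517 (plus strand, Dnaja1), chr5:135887669-135887968 (plus strand, Hspb1) and chr2:34771840-34772139 (plus strand, Hspa5).
Hspa1a: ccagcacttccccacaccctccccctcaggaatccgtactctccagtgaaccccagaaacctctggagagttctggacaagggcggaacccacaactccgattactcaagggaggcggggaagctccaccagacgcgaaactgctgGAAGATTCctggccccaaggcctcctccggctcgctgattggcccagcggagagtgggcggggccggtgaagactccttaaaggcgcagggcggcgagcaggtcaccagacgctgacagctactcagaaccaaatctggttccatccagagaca
Hsph1: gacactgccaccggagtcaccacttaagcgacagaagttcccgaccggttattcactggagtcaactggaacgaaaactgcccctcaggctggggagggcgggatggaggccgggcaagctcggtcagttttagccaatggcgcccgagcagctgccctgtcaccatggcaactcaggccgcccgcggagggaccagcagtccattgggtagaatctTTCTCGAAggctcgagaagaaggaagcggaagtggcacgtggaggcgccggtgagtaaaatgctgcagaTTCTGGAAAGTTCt
Dnaja1: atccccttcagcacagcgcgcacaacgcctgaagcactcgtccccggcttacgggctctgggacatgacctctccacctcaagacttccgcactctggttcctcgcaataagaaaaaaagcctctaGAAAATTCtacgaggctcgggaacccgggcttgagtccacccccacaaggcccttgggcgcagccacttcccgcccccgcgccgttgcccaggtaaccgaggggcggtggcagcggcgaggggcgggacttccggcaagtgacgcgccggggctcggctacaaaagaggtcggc
Hspb1: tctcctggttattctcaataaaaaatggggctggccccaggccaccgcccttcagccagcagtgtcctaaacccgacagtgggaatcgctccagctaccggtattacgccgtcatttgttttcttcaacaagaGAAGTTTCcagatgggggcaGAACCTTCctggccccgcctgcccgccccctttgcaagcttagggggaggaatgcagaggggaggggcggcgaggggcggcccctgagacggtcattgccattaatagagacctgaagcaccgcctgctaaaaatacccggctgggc
Hspa5: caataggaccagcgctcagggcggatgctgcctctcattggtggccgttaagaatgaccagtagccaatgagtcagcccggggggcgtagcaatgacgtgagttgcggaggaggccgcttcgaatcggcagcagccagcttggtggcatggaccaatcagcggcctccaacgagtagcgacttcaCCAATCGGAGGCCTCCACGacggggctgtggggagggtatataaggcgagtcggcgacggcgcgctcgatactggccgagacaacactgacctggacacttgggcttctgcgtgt

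A pair of units occurred in the windows of Hspa1a, Hspa1b, Hsph1, Dnaja1 and Hspb1, against 15.1% of all 32851 windows of this length. In Dnaja1 the pair began 124 bases before the first of the 3 RefSeq start sites with a window, and the windows of the other start sites held none. The GENCODE model of Dnaja1, whose span is given above, starts further upstream, so that the pair lies within it. Hsph1 was the only one of the 7 cytosolic genes with 3 units in a row (GAANNTTCNNGAA, which contains overlapping pairs). This form was found in 0.603% of all windows. In the printed Hsph1 window it began at base 37 from the RefSeq start site on, not before that site. A separate pair began 33 bases before the site. The GENCODE model of Hsph1 starts further upstream, so that both lie within it. The Hspa4 and Dnajb1 windows held neither form of the motif. The endoplasmic reticulum stress element was in 7 of the 12 windows of that set, in none of the 7 cytosolic genes and in 0.119% of all windows. These are matches of letters in a fixed window, not measured binding sites. The windows of Hspa1a and Hspa1b were the same at 296 of 300 positions.

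Sequence shared with other transcripts limits how surely reads can be assigned to a gene. Of the 31-base words of Hspa1a transcripts, 63.8% also occurred in Hspa1b, so the division of reads between this pair is uncertain. For Hspa8, Hsp90aa1 and Hspb1, 43.6%, 51.4% and 52.3% of the words occurred in another annotated gene, and for Hsp90ab1 and Dnaja1 13.2% and 13.4% did. Hsph1 and Hspa4 shared none, and Dnajb1 0.412%. Dnaja1 overlaps Smu1, which is on the opposite strand and is also in the table; whether the authors counted by strand is not given in the sources used here.

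Levels per length differed by about 2 orders of magnitude within the set. Per kilobase of exon, the mean normalised count over the 29 libraries was 12775 for Hspa8, the constitutive Hsp70, and 11301 for Hsp90ab1, the constitutive Hsp90. Hsp90aa1, the other cytosolic Hsp90, stood at 6919. Hspa4 (1244) and Hsph1 (1084), both Hsp110 proteins, and the J protein Dnaja1 (939) followed. The lowest were Dnajb1, a heat-inducible J protein, at 565, the heat-inducible Hsp70 genes Hspa1b at 170 and Hspa1a at 163, and the small heat shock protein Hspb1 at 129. Between libraries, Hspa1a and Hspa1b overlapped on this scale (127 to 199 and 124 to 226), whereas the ranges of Hsp90aa1 (6243 to 7430) and Hspa8 (11056 to 13944) did not meet. Variation from library to library was widest in 3 of these 4, and Dnajb1 (6.39%) was below the more abundant Hsph1 (8.05%). The coefficient of variation was 18.0% for Hspb1, 15.9% for Hspa1b and 11% for Hspa1a, against 4.48% for Hsp90aa1 and 4.55% for Hspa4.

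**Figure D1:**
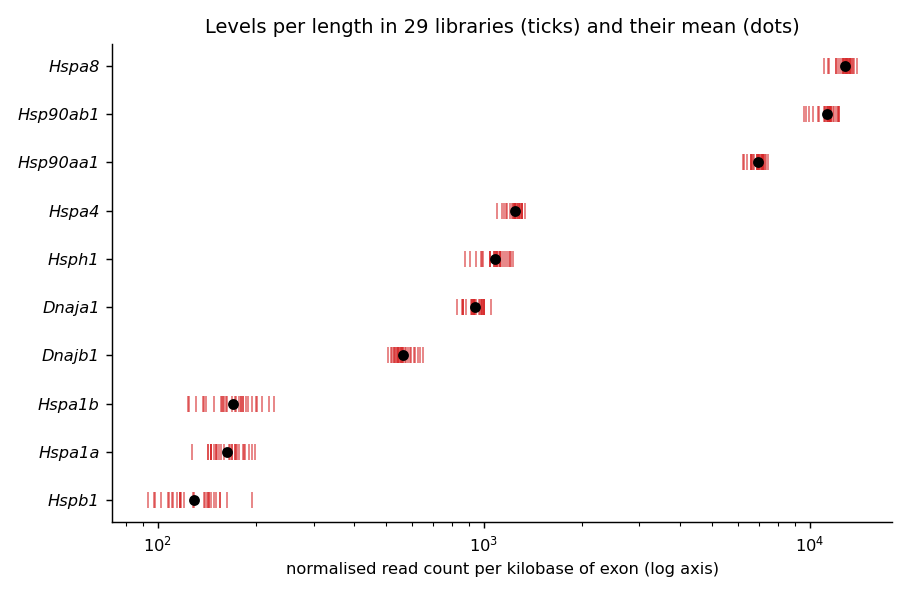
Normalised read count per kilobase of exon (log axis) of each of the 10 genes, with 1 tick per library (29) and a dot for their mean. Hspa8 (11056 to 13944) and Hsp90ab1 (9565 to 12255) lie highest, and no library of Hspa1a, Hspa1b or Hspb1 exceeds 226.

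Dnaja1, which encodes the most abundant cytosolic J protein of the set, separated the lithium group from both vehicle groups. The lithium females stood at 8525, 8605 and 8647 and the lithium males at 8337, 8513, 8612 and 9064 normalised counts. The HT vehicle females had 7465, 8049 and 7447 and the HT vehicle males 7392, 7916 and 7904. The WT libraries lay between 7457 and 8072, with a median of 7960, and the fluoxetine libraries between 7155 and 8654, with a median of 8279. Every lithium library was thus above every vehicle library of both genotypes, while the lithium and fluoxetine groups overlapped. A lithium group wholly above the HT vehicle group was seen for 0.352% of the 17881 genes tested, one wholly above WT for 0.28%, and one wholly above both for 0.0168%, which is 3 genes. Besides Dnaja1 these were Pfkfb3 and Nap1l2, which are named here because of their values. In the 14 endoplasmic reticulum genes, Canx alone had a lithium group wholly above HT vehicle, and none was wholly above WT.

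Hsph1, an Hsp110 protein that exchanges the nucleotide of Hsp70, had its highest mean under lithium, with overlap between groups. The mean was 7423 ± 660 (SD, n = 8) in WT, 7749 ± 456 (n = 6) in HT vehicle, 7923 ± 539 (n = 8) in fluoxetine and 8457 ± 410 (n = 7) in lithium. The WT libraries ran from 6376 through a median of 7582 to 8154, and the lithium libraries from 7855 through 8646 to 8898. The 4 WT males (6585, 7166, 6376 and 7574) were below every lithium library, while 3 of the 4 WT females (8154, 7939, 7589 and 8002) were above the lowest of them. Hspa4, the other Hsp110 gene, ran from 6835 to 7248 under lithium and from 6267 to 7018 in WT.

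Hspa8 in lithium libraries ran from 53996 through a median of 57028 to 59974, against 51670 through 54796 to 58408 in HT vehicle and 47552 through 53726 to 56447 in WT. The groups overlapped, with 3 of the 4 WT males (47552, 51568 and 48913) at the low end. Both cytosolic Hsp90 genes had their highest mean under lithium. Hsp90aa1 had a mean of 28087 ± 622 (SD, n = 7) under lithium and 26026 ± 817 (n = 6) in HT vehicle, where only 1 of 6 vehicle libraries (27196) was above the lowest lithium library (27109). The WT libraries of Hsp90aa1 (25240 to 28439) overlapped with lithium. Hsp90ab1 had 35074 ± 1047 and 33402 ± 1753 in the same groups, which overlapped.

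Dnajb1, Hspa1a, Hspa1b and Hspb1 did not separate the treatment groups. Dnajb1 had means of 1737 ± 41.4 (SD, n = 8) in WT, 1818 ± 147 (n = 6) in HT vehicle, 1815 ± 107 (n = 8) in fluoxetine and 1878 ± 129 (n = 7) in lithium, all overlapping. The sum of Hspa1a and Hspa1b, which does not depend on how reads were divided between them, was 903 ± 98.3 in WT, 1005 ± 138 in HT vehicle, 954 ± 81.1 in fluoxetine and 1002 ± 156 in lithium. The share given to Hspa1a lay between 44.8% and 57.0% in all libraries. Hspb1 had means of 127 ± 15.1, 142 ± 40.6, 131 ± 18.4 and 135 ± 23.0 in the same order. Hspb1 is described by sex below.

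**Figure D2:**
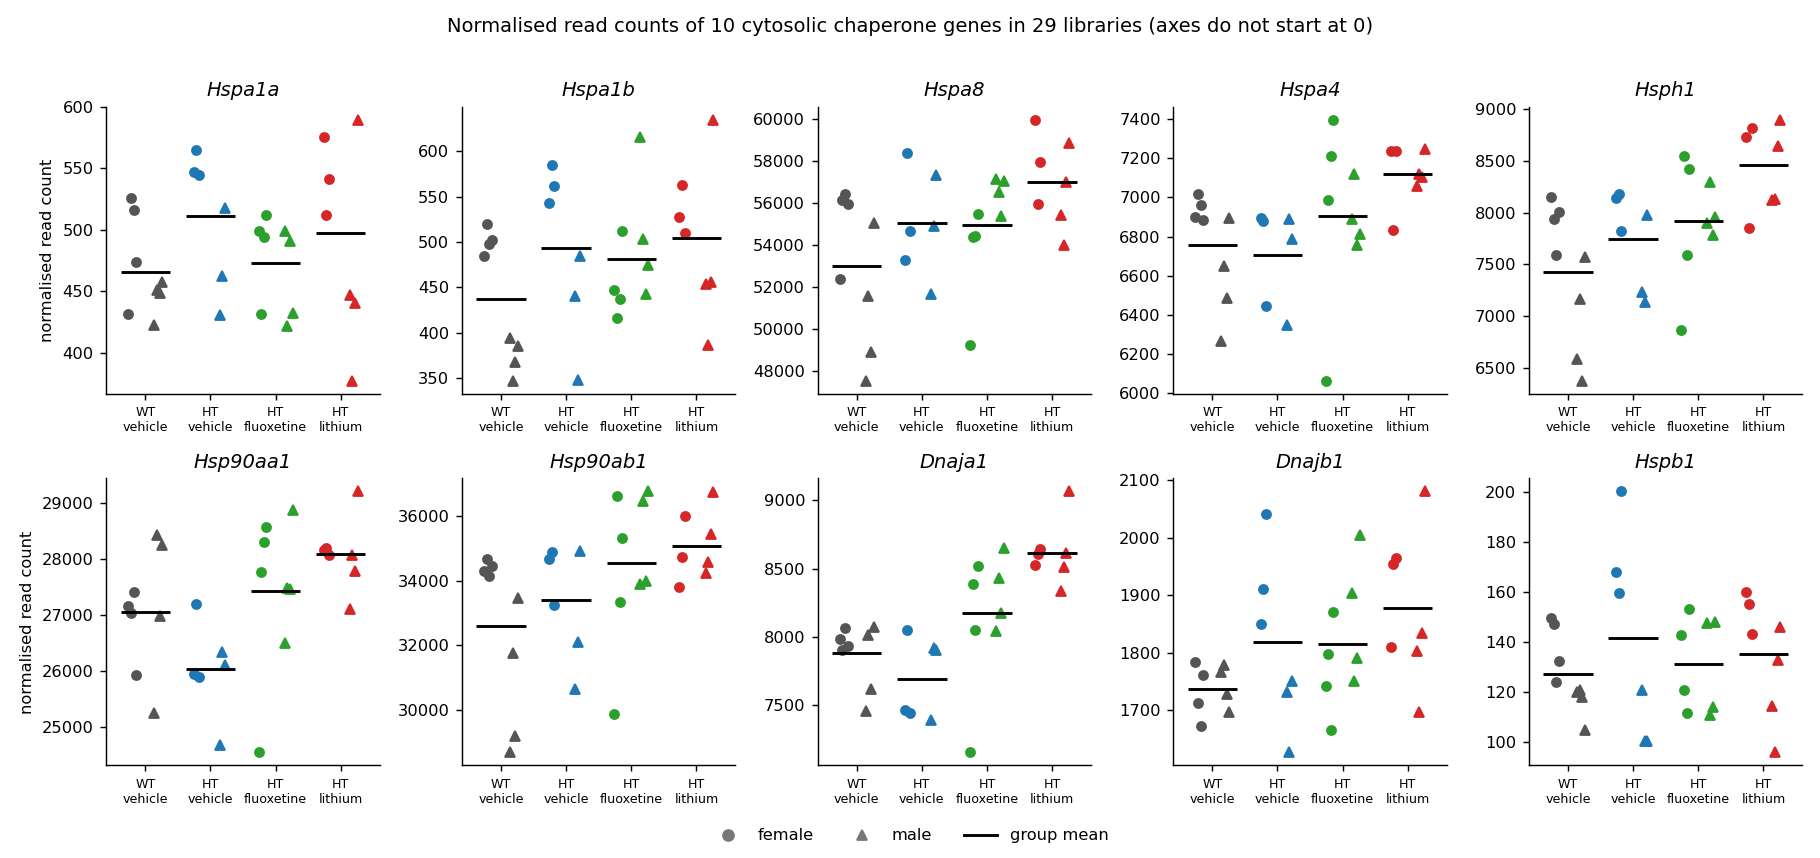
Normalised read counts of the 10 genes by genotype and treatment, with females as circles, males as triangles and the group mean as a bar; axes do not start at 0. The 7 lithium libraries of Dnaja1 (8337 to 9064) are all above the 14 vehicle libraries (at most 8072), and the lowest library of both Hsph1 and Hspa1b is a WT male.

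No member passed the test for lithium against vehicle within HT mice. The test was limma on log2(value + 1) across all genes, with the mean of the female and male differences and Benjamini-Hochberg adjustment over all 17881 genes, at a threshold of 0.05. It called 0 genes of the whole table (0%), and 0 within each sex (0% in females, 0% in males), while 2030 genes had an unadjusted p under 0.05. Among these were 4 of the 10: Dnaja1, Hsp90aa1, Hsph1 and Hspa4. Dnaja1 had a log2 fold change of 0.16 ± 0.04 (SE), a ratio of 1.12 (limma, adjusted p = 0.214), Hsph1 one of 0.13 ± 0.05 (adjusted p = 0.342) and Hsp90aa1 one of 0.11 ± 0.04 (adjusted p = 0.297). Dnaja1 was alike in both sexes, at 0.17 ± 0.05 in females and 0.16 ± 0.05 in males, with a female minus male difference of 0.01 ± 0.07. That interaction called 0% of genes. Over the set, 8 of 10 differences were above 0 with a median of 0.06, against 48.4% of all genes above 0 with a median of 0.00. The values below 0 were those of Hspa1a (-0.03) and Hspb1 (-0.01). On reads recovered from the values, edgeR called 0 genes and DESeq2 called 24 higher (0.294% of 8174 genes with an adjusted p) and 8 lower. Dnaja1 was among the higher ones (DESeq2, log2 fold change 0.16, adjusted p = 0.0114), the only member called.

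Against WT vehicle, the HT lithium group had higher levels of Hsph1 and Dnaja1. Hsph1 rose by 0.19 ± 0.04 on the log2 scale, a ratio of 1.14 (limma, adjusted p = 0.0237), and Dnaja1 by 0.13 ± 0.03, a ratio of 1.09 (adjusted p = 0.045). These 2 of 10 members compare with 1.33% of all genes called higher and 1.9% called in either direction (238 higher, 102 lower). The comparison joins the allele and the drug, which cannot be told apart in it. The other 8 members had positive differences that did not pass in limma, from 0.06 for Hsp90aa1 to 0.22 ± 0.08 for Hspa1b (adjusted p = 0.163). Between them lay Dnajb1 (0.11, adjusted p = 0.127), Hspa8 (0.11, adjusted p = 0.127) and Hsp90ab1 (0.11, adjusted p = 0.169). DESeq2 on the recovered reads called Hspa8 as well (adjusted p = 0.0456), which made 3 members, and edgeR called the same 2 as limma. The median of the 10 was 0.11, and that of all genes was 0.00.

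Both calls were near the threshold. Leaving out 1 library at a time gave between 0 and 3 members called higher. No member was called without lithium female 1 or 3, lithium male 3 or 4, WT female 3, or WT male 1 or 3. A single member was called without lithium female 2, lithium male 2, WT female 1, 2 or 4, HT vehicle female 1, fluoxetine female 3, or fluoxetine male 2 or 3, and 3 were called without WT male 4. The log2 fold change of Dnaja1 stayed between 0.08 and 0.14 and that of Hsph1 between 0.15 and 0.22 over 45 other settings.

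The dissections differed in tissue content, and its part in these differences was not tested. The mean of 9 olfactory marker genes (log2, centred) was -0.80 ± 1.44 (SD, n = 7) under lithium, 0.40 ± 1.18 (n = 8) in WT and 0.40 ± 0.68 (n = 6) in HT vehicle, with summed levels of 2441 to 11037, 3800 to 21828 and 5066 to 14223. The mean of 5 pyramidal neuron markers was 0.10 ± 0.09 under lithium and -0.09 ± 0.15 in WT. Across libraries, with group means removed, Dnaja1 correlated with the olfactory mean at r = -0.17 and Hsph1 at r = -0.30 (n = 29). Without the 10 libraries in which the striatal or the olfactory mean was more than 1 above the median, Hsph1 differed from WT by 0.19 ± 0.04 (adjusted p = 0.0983) and Dnaja1 by 0.13 ± 0.04 (adjusted p = 0.238). The whole table then gave 20 genes higher and 5 lower. In bulk tissue, fewer cells of a type and less RNA per cell cannot be told apart.

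The endoplasmic reticulum chaperones differed in the same direction and more of them passed. Against WT vehicle, limma called 6 of 14 higher in HT lithium, beside 1.33% of all genes. This comparison joins the allele and the drug. Hspa5 differed by 0.27 ± 0.05 (limma, adjusted p = 0.00242) and Hyou1, an Hsp110 relative, by 0.21 ± 0.03 (adjusted p = 0.00127). Pdia4, a disulfide isomerase, differed by 0.29 ± 0.05 (limma, adjusted p = 0.00556). Manf, Sdf2l1 and Pdia6 differed by 0.20, 0.39 and 0.15 (limma, adjusted p = 0.0113, 0.0184 and 0.0445). In each of these 6, the HT vehicle mean lay between those of WT and HT lithium. Per kilobase of exon, Hyou1 had means of 388 in WT, 423 in HT vehicle and 446 in HT lithium. Hspa5 had 1308, 1425 and 1578 in the same order. All 14 differences were above 0, with a median of 0.13 beside the 0.11 of the cytosolic genes. Hspa5 libraries ran from 5781 through a median of 6762 to 7465 under lithium and from 5089 through 5539 to 6232 in WT, and overlapped. Against HT vehicle, 14 of 14 were above 0 with a median of 0.13, beside 8 of 10 and 0.06 in the cytosolic set, and 0 of either set passed in limma. The shares that passed against WT, 2 of 10 and 6 of 14, were not compared by a test. Within the cytosolic set, the larger differences from HT vehicle were in Hsph1, Hsp90aa1 and Dnaja1 (0.11 to 0.16), which are within the range of the endoplasmic reticulum set (0.02 to 0.20). Hspa5 was 0.16 ± 0.05 there (adjusted p = 0.276). Against WT, Hspa5, Hyou1, Manf and Pdia4 passed in 44 of 45 other settings, Sdf2l1 in 43 and Pdia6 in 27. The 6 genes were all lost without the 10 libraries high in striatal or olfactory markers (0 of 14 called). Hspa5 still differed from WT by 0.27 ± 0.06 without those libraries (limma, adjusted p = 0.0983).

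**Figure D3:**
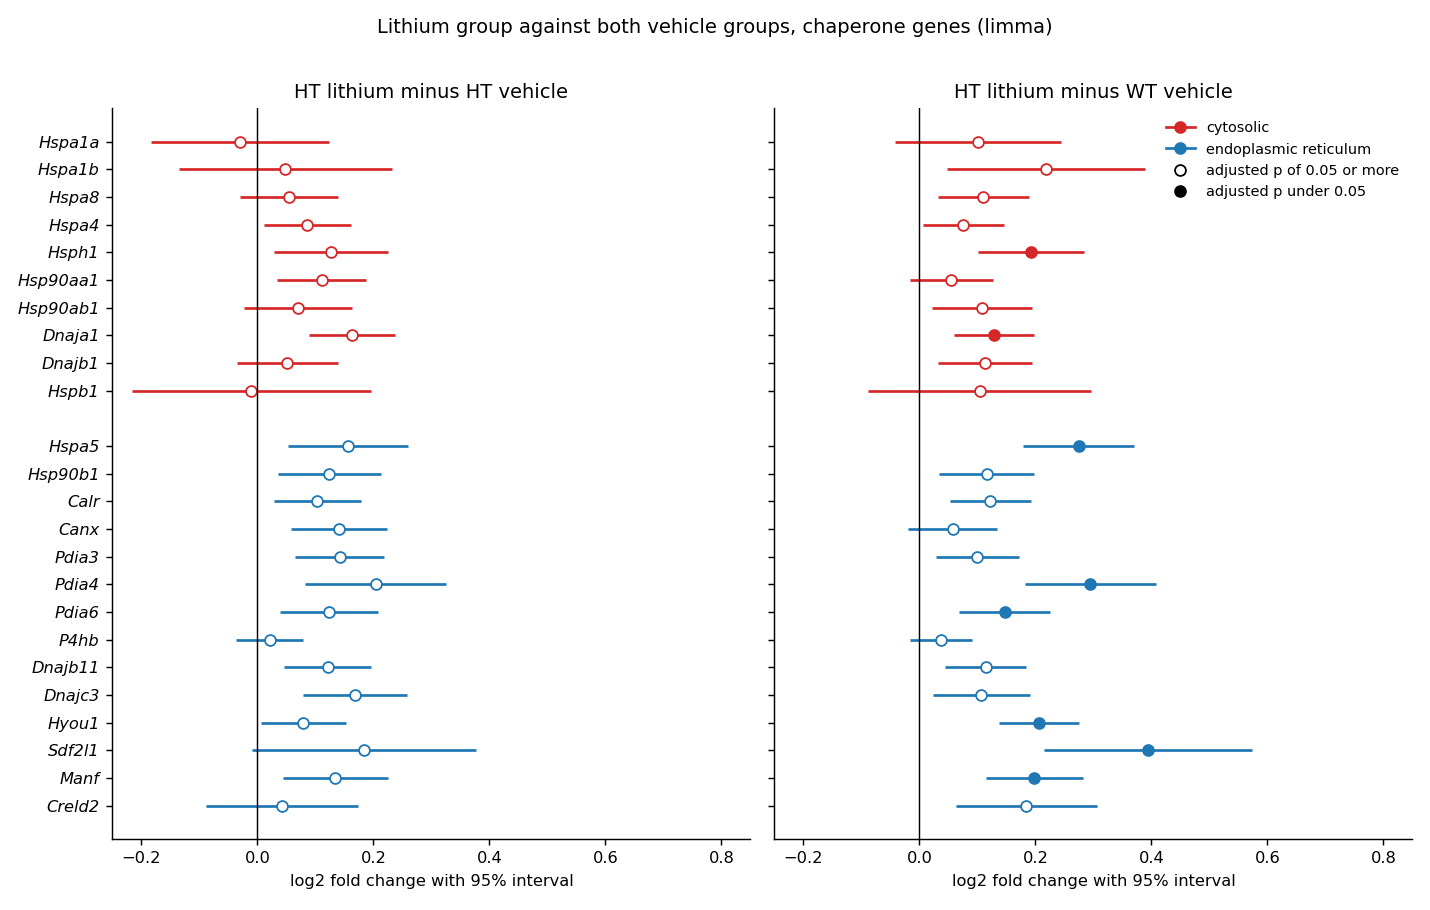
Log2 fold changes with 95% intervals (limma) for the 10 cytosolic and 14 endoplasmic reticulum chaperone genes, HT lithium against HT vehicle (left) and against WT vehicle (right); filled dots passed an adjusted p of 0.05. All differences on the right are above 0, and filled dots are Hsph1, Dnaja1 and 6 endoplasmic reticulum genes.

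No member passed the test for fluoxetine or for the allele alone. None was called for fluoxetine against vehicle in HT (0% of all genes, 1397 at an unadjusted p under 0.05, edgeR 0, DESeq2 4 higher and 2 lower), and 5 of 10 differences were above 0 with a median of 0.02. The highest was Dnaja1, at 0.09 ± 0.03 (limma, adjusted p = 0.553), and the lowest Hspa1a, at -0.11 ± 0.07 (adjusted p = 0.723). Between HT and WT vehicle, limma called 0.207% of all genes and none of the 10, none of which had an unadjusted p under 0.05 (edgeR 23 genes higher and 6 lower, DESeq2 138 and 74). Of the 10 differences, 7 were above 0, with a median of 0.06. The widest were Hspa1b at 0.17 ± 0.09 (adjusted p = 0.432) and Hspa1a at 0.13 ± 0.07 (adjusted p = 0.479). Dnaja1 stood at -0.03 ± 0.03, with the HT vehicle mean (7695) below that of WT (7881). HT fluoxetine against WT called 0.19% of genes in limma and no member, of which Hsph1 (0.10 ± 0.04, adjusted p = 0.497) and Hsp90ab1 (0.08 ± 0.04, adjusted p = 0.531) had an unadjusted p under 0.05. Comparisons that use the same vehicle libraries are not independent of each other.

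Lithium and fluoxetine were not distinguished directly. The test of lithium against fluoxetine within HT called 0% of genes, with edgeR at 0 and DESeq2 at 1 higher and 1 lower. All 10 members were higher under lithium, by 0.02 to 0.10, and none passed (limma, adjusted p = 0.985 for each). The members vary together between libraries, as described below, so counts of signs here and in other comparisons are not counts of independent results. The largest was Hsph1 at 0.10 ± 0.04, with a 95% interval of 0.00 to 0.19, and next came Hspa1a and Dnaja1, both at 0.08. The interval for Dnaja1 was 0.01 to 0.15. A p that misses the threshold does not show that the drugs act alike on these genes.

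Hspb1, a small heat shock protein that holds unfolded proteins without ATP, was higher in females. The HT vehicle females had 168, 160 and 200 normalised counts against 121, 100 and 101 in males. The lithium females had 160, 155 and 143 against 114, 96.0, 133 and 146 in males, of which 1 was above the lowest female. The WT females had 150, 147, 124 and 132 against 120, 121, 118 and 105 in males. The fluoxetine groups overlapped fully at 112 to 153 and 111 to 148. The female minus male difference over the 4 genotype and treatment groups was 0.33 ± 0.07, a ratio of 1.26 (limma, adjusted p = 0.0273). This was the only member called, beside 0.207% of genes called higher in females and 0.257% in either direction. Hspa1b (0.21 ± 0.06, adjusted p = 0.181) and Hspa1a (0.17 ± 0.05, adjusted p = 0.203) were also higher in females without passing, and their sum gave 0.19 ± 0.05 (adjusted p = 0.133). Hspa8, Hspa4, Hsph1, Hsp90aa1, Hsp90ab1 and Dnaja1 differed by -0.01 to 0.07. Among the endoplasmic reticulum genes, Hspa5 (0.15 ± 0.03, adjusted p = 0.0456) and Pdia4 (0.18 ± 0.04, adjusted p = 0.0472) rose in females, and 14 of 14 were above 0.

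The female excess in Hspb1 varied with the group in value, which the tests did not separate. For fluoxetine against vehicle, the female minus male difference of the drug difference was -0.68 ± 0.19 for Hspb1 (adjusted p = 0.145), -0.58 ± 0.17 for Hspa1b (adjusted p = 0.156) and -0.26 ± 0.08 for Dnajb1 (adjusted p = 0.184). None passed in limma, which called 0.106% of genes, and all 10 members were below 0, with a median of -0.14. edgeR called 1 gene higher and 19 lower, and DESeq2 56 higher and 142 lower of 9561, again with no member. In DESeq2, Hspa1b had an adjusted p of 0.0579, and Hspb1 was given none. The sum of Hspa1a and Hspa1b gave -0.37 ± 0.14 (adjusted p = 0.249). The corresponding interaction of the allele called 0% of genes, with Hspb1 at 0.46 ± 0.19 (adjusted p = 0.847). The markers of endothelial cells, which also make Hspb1, had means of -0.01 in females and 0.01 in males (log2, centred), and blood markers -0.18 and 0.17. Female minus male, the mural cell markers differed by 0.16 (Tagln), 0.15 (Acta2), 0.11 (Myh11), 0.03 (Rgs5) and -0.06 (Pdgfrb). None of these passed in limma. The part of endothelial, mural and blood cells was not tested. The call for Hspb1 was lost without fluoxetine female 4, fluoxetine male 2 or 3, lithium female 1, lithium male 1, HT vehicle female 3, HT vehicle male 2 or WT female 1 (no member called). Without lithium male 4, the highest male for Hspa1a and Hspa1b, 3 members were called (Hspb1, Hspa1a and Hspa1b).

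Partners of these chaperones were read against the 1.33% of all genes that limma called higher in HT lithium against WT. Of 19 cochaperones of Hsp70 and Hsp90, 1 rose in HT lithium against WT: Fkbp5, an immunophilin that is also a glucocorticoid target, by 0.46 ± 0.10 (limma, adjusted p = 0.0192). Of 17 other cytosolic Hsp70 and J genes, 1 rose: Dnajb5, by 0.16 ± 0.04 (adjusted p = 0.0279). None of 4 genes of heat shock factors or their binding protein (Hsf1, Hsf2, Hsf4 and Hsbp1) passed. Nor did any of 7 other small heat shock protein genes, 8 subunits of the TRiC chaperonin or 9 mitochondrial chaperones and proteases. Hsf1, which encodes the factor that drives inducible chaperones, differed under lithium by 0.05 from WT and by -0.09 from HT vehicle. The HT vehicle group itself lay 0.15 ± 0.05 above WT for Hsf1, without passing (limma, adjusted p = 0.15). Fluoxetine also differed from HT vehicle by -0.09 for this gene (limma, adjusted p = 0.636). All 8 TRiC subunits were above 0 in both lithium comparisons, with a median of 0.07 in each, and Tcp1 and Cct4 were 0.11 and 0.09 over HT vehicle (adjusted p = 0.349 and 0.369). Of 10 sensors and degradation factors of the endoplasmic reticulum, 3 rose against WT: Herpud1 by 0.20 ± 0.04, Xbp1, which encodes a factor of the unfolded protein response, by 0.18 ± 0.04, and Derl3 by 0.60 ± 0.15 (adjusted p = 0.0133, 0.0323 and 0.0323). Derl3 was near the filter value of 10, at 14.5 to 45.2 normalised counts with a median of 27.2. Herpud1 and Xbp1 had medians of 1295 and 1715. The same list of 10 genes had 0 calls against HT vehicle, where Xbp1 stood at 0.17 ± 0.05 (limma, adjusted p = 0.249). Cirbp, a cold-inducible RNA binding protein gene, lay 0.22 lower under lithium than in HT vehicle and 0.21 lower than in WT, without passing (adjusted p = 0.28 and 0.0958).

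Between libraries of a group, the members fell roughly into 2 blocks. With the means of the 8 groups of genotype, treatment and sex removed, the 15 pairs among Hspa8, Hspa4, Hsph1, Hsp90aa1, Hsp90ab1 and Dnaja1 correlated at r = 0.59 to 0.91, with a median of 0.74 over the 29 libraries. The closest pair was Hsp90aa1 and Dnaja1 (r = 0.91). The 6 pairs among Hspa1a, Hspa1b, Dnajb1 and Hspb1 correlated at 0.33 to 0.75. Across both blocks, 24 pairs ran from -0.29 (Hspa4 and Hspb1) to 0.50 (Hspa1a and Hspa8), with a median of 0.14. Hspa1a was thus closer to Hspa8 than to Dnajb1 (r = 0.34) or Hspb1 (r = 0.33) of its own block. This split was chosen after the values were seen, and the libraries share their size factors, so the correlations are descriptions.

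**Figure D4:**
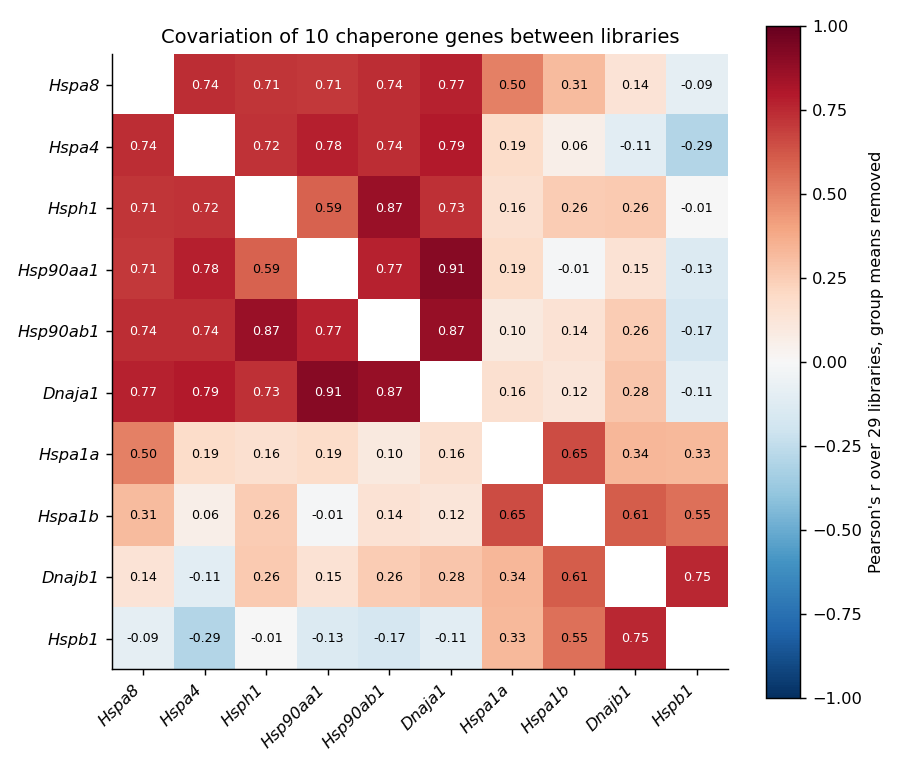
Pearson's r between the 10 genes over 29 libraries after removal of group means, with the 6 more abundant genes first. Values within the first block are 0.59 or more, and values between it and Hspb1 include the lowest, -0.29.

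The mean of the cytosolic genes in a library followed the mean of the endoplasmic reticulum genes. With group means removed, r was 0.75 and Spearman's rho 0.73 over the 29 libraries, and r was 0.62 without the 2 libraries farthest from the median of the cytosolic mean. The 6 more abundant genes (r = 0.63) and the 4 others (r = 0.51) both correlated with it, although they hardly correlated with each other (r = 0.11). Without the 2 farthest libraries, the 4 others fell to r = 0.23. Before removal of group means, the lithium libraries had cytosolic means of -0.09 to 0.18 (log2, centred per gene) and endoplasmic reticulum means of -0.04 to 0.20, and the WT libraries -0.17 to 0.04 and -0.18 to 0.06. The lowest 3 cytosolic means belonged to WT and HT vehicle males.

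**Figure D5:**
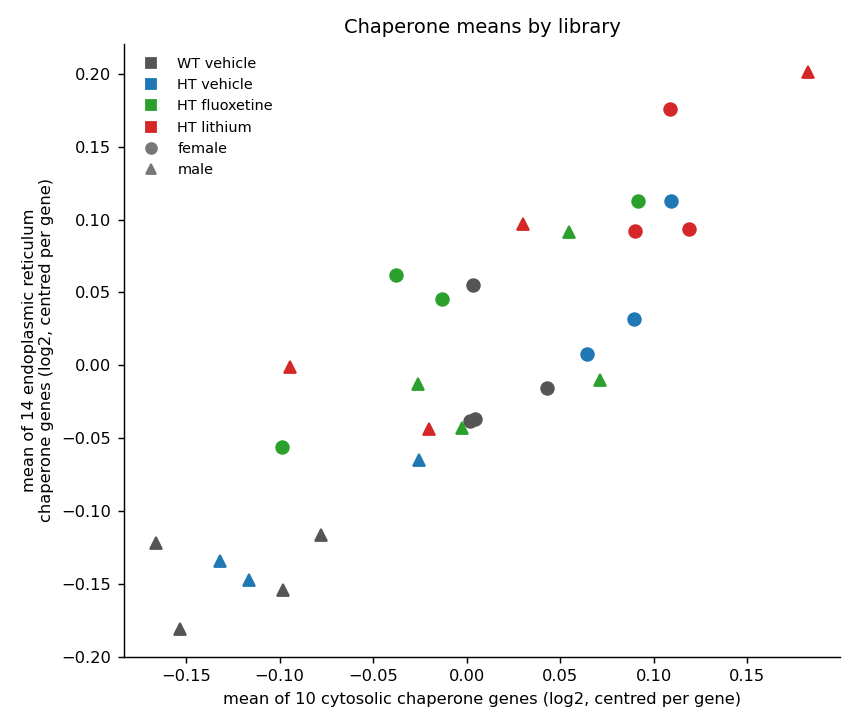
Each point is 1 of 29 libraries, placed by its mean over 10 cytosolic and 14 endoplasmic reticulum chaperone genes (log2, each gene centred over all libraries). The lowest cytosolic mean is that of a WT male (-0.17), and a lithium male is at the upper right (0.18 and 0.20).

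Among 13818 genes with a mean value of at least 50, those most like the mean of the standardised members within groups included Srp68 (r = 0.83), Sdf2l1 (0.77), Drosha (0.77), Abcf1, Abcf2, Flywch1 and Pdk2 (0.74 to 0.75), over 29 libraries. Zfp653 (r = -0.81), Cd2ap (-0.78) and Ddx58 (-0.77) were least like it. Of the chaperone lists, Sdf2l1 ranked the third, Calr the eleventh and the Hsp90 cochaperone Stip1 (r = 0.73) number 13, and Hspa5 (r = 0.71) number 17. The cold-inducible genes Cirbp (r = -0.63) and Rbm3 (r = -0.53) were near the opposite end, at ranks 13762 and 13559 of 13818. Markers of cell types also differed along this order. Astrocyte markers ran from r = -0.60 to -0.03 and pyramidal neuron markers from 0.24 to 0.59. Interneuron markers lay on both sides, from -0.19 to 0.63. The part of cell content in these correlations was not tested. Hsf1 was at r = -0.02.

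Libraries held 22808894 to 31711931 recovered reads, with HT vehicle at 23348669 to 29144642 and lithium at 26033202 to 30463407; the part of depth in the results was not tested. Markers of pyramidal neurons were high throughout, with summed levels of 174799 to 229310 for the 5 genes, and choroid plexus markers stayed between 138 and 429 for 6 genes. Striatal markers ranged from 3895 to 20830 and olfactory markers from 2441 to 21828. Where nothing states that libraries of a group came from separate mice, p-values measure only the spread between these libraries.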

How the data were processed

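Libraries were made from polyadenylated RNA with a stranded kit, per the labels' protocols. Per the submitters' processing notes, the tools include Salmon 0.11.2, R 3.6.0 and DESeq2 1.19.11, and the build is GRCm38; the annotation release and strand setting are not given in the sources used here. The authors deposited a normalised signal per gene. In each library, 100% of its values were whole reads (tolerance 0.0001) divided by 1 size factor. Symbols came from GENCODE M21 on GRCm38, which matched 18227 of 18240 identifiers.

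The 17881 genes that reached a value of 10 in 3 or more libraries were analysed with limma 3.58.1 in R 4.3.3 on log2(value + 1), with an intensity trend and a mean for each of 8 groups of genotype, treatment and sex (21 residual degrees of freedom). Differences are the mean of the female and male contrasts, and p-values were adjusted by Benjamini-Hochberg over all genes tested. Fold changes on this scale understate changes of low genes. The procedure was tested on simulated data with changes larger than the lithium differences given for the members. That test does not cover differences of their size. edgeR 4.0.16 and DESeq2 1.42.0 were run on the recovered reads, 22808894 to 31711931 per library. Promoter and transcript sequences were searched on both strands.

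The members and gene lists were chosen with earlier results of these data known. Named genes were all members, the endoplasmic reticulum chaperones and list genes that passed or had the smallest p-values, and the 8 most and 3 least alike genes by correlation with the mean of the standardised members, of which 1 is not reported here. Replicate numbers were not taken to pair libraries, since in no comparison did every same-numbered pair correlate over 0.1: 0 of 6 pairs did for lithium against vehicle, 0 of 7 for HT lithium against WT, 1 of 8 for HT fluoxetine against WT and 5 of 7 (0.07 to 0.31) for lithium against fluoxetine. Alternatives were other pseudocounts, filters, scalings and models, marker covariates, a replicate block and the omission of each library. Both the pairs and the block used the replicate numbers of the sample titles. Library names number the HT vehicle females differently, and pairs by those names were not examined.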

Additional observations from a re-analysis of the deposited data

Results flagged for a closer look

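In 3 of 40 pairs of a member and a group, the highest or lowest library stood far from the others; chance gives about 1 in 20 groups. Hspa8 was 49244 in fluoxetine female 1, where the nearest library of that group was 54407. Dnaja1 was 7155 in the same library, with the nearest at 8041. Dnaja1 was 9064 in lithium male 4, with the nearest at 8647, and all 7 lithium libraries were above the vehicle libraries with or without it.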

How the results depend on the processing

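Leaving out 1 library at a time gave 0 to 3 members called higher in HT lithium against WT, 0 to 3 members called between the sexes, 4 to 8 endoplasmic reticulum chaperones higher in HT lithium against WT, and 0 to 1 higher in HT against WT vehicle. Of the 2 members called higher in HT lithium against WT, 1 was called with quantile normalisation, with upper quartile rescaling and with no intensity trend, and 0 with the striatal and olfactory marker means as covariates. With the libraries high in those markers left out, 0 members were called for that comparison, 0 between the sexes and 0 endoplasmic reticulum chaperones. With sex as an additive term, 0 members were called between the sexes. DESeq2 called 3 members higher in HT lithium against WT, 1 member for lithium against vehicle in HT and 1 endoplasmic reticulum chaperone for HT against WT vehicle. The replicate block called 1 endoplasmic reticulum chaperone for HT against WT vehicle and 9 for HT lithium against WT, and left the counts of members called as they were. Hsph1 passed in 36 of 45 other settings and Dnaja1 in 24, and no value that passed in either setting changed direction. edgeR, DESeq2 and the omission of high-marker libraries were chosen after seeing the data. The causes were not tested.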
